A study of Homo sapiens with 4 samples.

Results

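The genes described here are the plasma membrane and lysosomal carriers of amino acids and nucleosides in HCT116, a human colon carcinoma line. They were chosen by symbol, as the rows of the count table in the solute carrier families SLC1, SLC3, SLC6, SLC7, SLC28, SLC29, SLC36, SLC38 and SLC43, without antisense genes or pseudogenes. The rule gave 65 of the 35820 rows. RNA was measured by ribosomal-RNA-depleted total RNA sequencing in 4 libraries, 2 from wild-type cells (WT) and 2 from E2-4 cells, a line of HCT116 in which the topoisomerase gene TOP3B was targeted at exon 2 with CRISPR (knockout, KO). Both groups carry the genome of the same carcinoma line, no drug treatment is given in the labels, and clone and genotype cannot be told apart because 1 KO line was used. Nothing in the labels says that libraries of a group are separate cultures, so p-values measure the spread between these libraries, which may be technical.

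Cells take up amino acids through carriers that differ in their driving force. SLC1, SLC6 and most SLC38 proteins couple uptake to sodium, and SLC36 proteins such as SLC36A1 couple it to protons. The light chains of the SLC7 family exchange an amino acid for another while bound to a heavy chain of the SLC3 family. SLC28 proteins concentrate nucleosides with sodium, and SLC29 proteins, the equilibrative nucleoside transporters, let nucleosides move down their gradient. Proliferating carcinoma cells are known for their use of SLC1A5, SLC7A5 with SLC3A2, SLC38A2 and SLC7A11, which bring in glutamine, large neutral amino acids and cystine.

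Upstream sequences are shown for SLC29A1, the nucleoside transporter that DESeq2 called, and for SLC43A1 and SLC1A3, the tested carriers with the highest and the lowest log2 fold change. They are the 250 bases before the RefSeq transcription start (GRCh38.p14), read 5′ to 3′ on the gene's strand. Capitals mark the E-box CACGTG, the GC box GGGCGG and the amino acid response core TGATGNAA on either strand. SLC29A1 lies at chr6:44219365-44219614 (+ strand), SLC43A1 at chr11:57515703-57515952 (- strand) and SLC1A3 at chr5:36596338-36596587 (+ strand).
SLC29A1: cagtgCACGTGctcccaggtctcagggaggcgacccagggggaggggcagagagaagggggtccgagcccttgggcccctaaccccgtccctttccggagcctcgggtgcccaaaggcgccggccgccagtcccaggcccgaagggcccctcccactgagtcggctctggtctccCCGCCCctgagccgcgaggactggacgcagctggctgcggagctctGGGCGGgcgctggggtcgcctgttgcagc
SLC43A1: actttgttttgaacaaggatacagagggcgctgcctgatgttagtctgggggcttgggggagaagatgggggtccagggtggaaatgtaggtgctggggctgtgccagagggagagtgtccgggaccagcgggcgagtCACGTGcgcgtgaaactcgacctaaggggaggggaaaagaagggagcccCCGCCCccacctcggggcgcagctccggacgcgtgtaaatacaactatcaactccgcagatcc
SLC1A3: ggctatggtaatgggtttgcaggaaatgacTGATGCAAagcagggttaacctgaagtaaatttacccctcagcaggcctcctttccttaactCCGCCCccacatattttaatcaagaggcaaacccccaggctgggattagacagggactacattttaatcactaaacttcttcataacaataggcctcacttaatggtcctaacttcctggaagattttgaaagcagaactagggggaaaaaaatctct
The SLC29A1 window held 1 CACGTG and 2 GC boxes, the SLC43A1 window 1 CACGTG and 1 GC box, and the SLC1A3 window 1 amino acid response core and 1 GC box.

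Estimated gene counts totalled 15141919 and 11750516 in WT replicates 1 and 2 and 10450048 and 16143634 in KO replicates 1 and 2, and paired values below follow this order. Levels are given in CPM, the count relative to the library total of tested genes times its TMM factor, which was 0.858 in WT replicate 1 and 1.04 to 1.06 in the others. With 0 counts a gene may still lie at up to 3 counts, or 0.176 to 0.271 CPM depending on the library, by counting error alone. TOP3B RNA was at 57.1 and 66.5 CPM in WT against 43.9 and 54.7 CPM in KO, with a log2 fold change of -0.32 (edgeR adjusted p = 0.522), and since an edited exon need not remove the RNA this does not check the labels. Of 11 markers of colon epithelium 8 were tested, and their summed level was 2619 and 2159 CPM in WT and 1543 and 1471 CPM in KO. Of the 8, 7 lay below 0 (median log2 fold change -0.65), 4 were lower at an unadjusted edgeR p under 0.05 and 0 were higher, and DESeq2 called KRT19 lower (adjusted p = 0.00290). Of all tested genes 48.5% lay above 0, and 6.21% were lower and 4.97% higher at that unadjusted p. DESeq2 called 0.946% of its genes lower. VIL1 of the brush border and TFF3 of goblet cells had at most 1 count in any library. Markers of fibroblasts summed to at most 1.72 CPM and those of leukocytes to at most 2.70 CPM, with COL1A2, COL3A1, PTPRC, CD3E and LYZ at 0 counts in all 4 libraries. Neuronal markers summed to 15.7 and 19.2 CPM in WT and 23.4 and 18.9 CPM in KO, nearly all of it GAD1. The part of the epithelial difference in the results below was not tested. In such bulk samples fewer cells of a type and less RNA per cell cannot be told apart.

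Of the 65 transporters, 29 passed the filter on low counts and were tested, 19 had counts in at least 1 library but did not pass, and 17 had 0 counts in all 4 libraries. As a group the tested transporters had about as many small and as many large differences between KO and WT as all tested genes, and the 2 called by DESeq2 were both higher in KO. edgeR's quasi-likelihood test called 0 of the 29 at an adjusted p under 0.05, where it called 1 of all 12269 genes tested (0.00815%). At an unadjusted p under 0.05 it gave 5 members, 4 higher and 1 lower in KO, against 4.97% of all tested genes higher and 6.21% lower (11.2% together). DESeq2 called 2 of the 30 members it tested, the nucleoside transporter SLC29A1 and the taurine transporter SLC6A6, both higher in KO. Of its 12899 genes it called 0.504% higher and 0.946% lower (1.45% together). Of the 29, 21 had a log2 fold change above 0, where 48.5% of all tested genes did. Without KO replicate 1 the split was 16 above and 13 below. Their median was 0.15, against -0.014 over all tested genes. Both KO libraries lay above both WT libraries for 11 members and below them for 4, where each kind of separation held for 23.5% of all tested genes. The log2 fold change was smaller than 0.5 in size for 20 of the 29, and 73% of all tested genes were that close. It was larger than 1 for 3, against 9.46% of all tested genes. The members took 0.246% and 0.266% of all counts in WT and 0.294% and 0.290% in KO, but after scaling their summed level was 2865 and 2562 CPM in WT and 2778 and 2745 CPM in KO, so the groups overlapped.

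**Figure D1:**
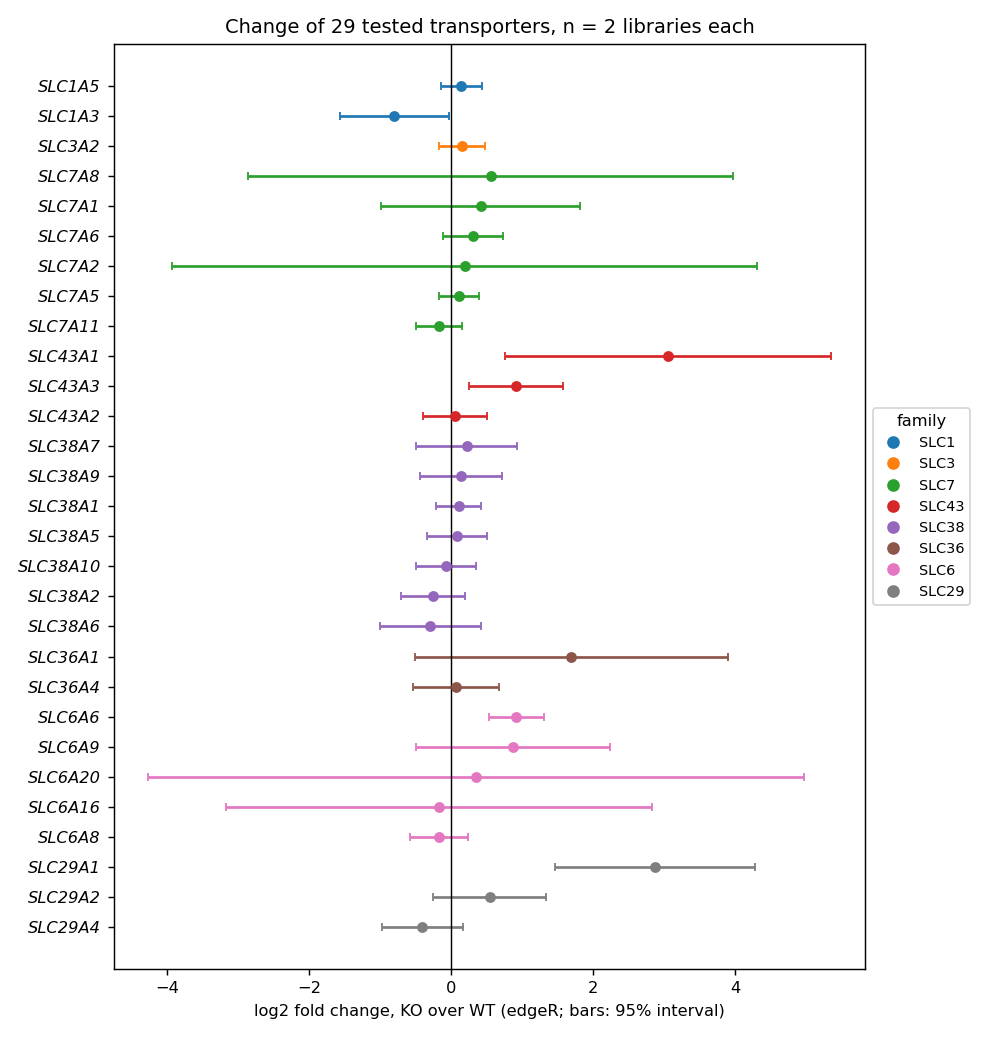
Log2 fold change of KO over WT for the 29 tested transporters by edgeR, grouped by family (colour), with bars for the 95% interval and n = 2 libraries a group. SLC43A1 (3.06) and SLC29A1 (2.87) lie farthest to the right, SLC1A3 (-0.80) is the lowest, and the intervals of 5 members exclude 0 without adjustment.

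SLC29A1, the equilibrative nucleoside transporter ENT1 (ENSG00000112759, chromosome 6), carries nucleosides such as adenosine and uridine and nucleoside drugs across the plasma membrane. It was measured at 1.85 and 0.655 CPM in WT and at 10.6 and 7.99 CPM in KO. Both KO libraries lay above both WT libraries, with counts of 24 and 8 against 117 and 136. The group means were 1.25 ± 0.844 and 9.28 ± 1.83 CPM (SD, n = 2 each). The log2 fold change fitted by edgeR was 2.87 with an SE of 0.55, or 7.32-fold (95% interval 1.46 to 4.28; edgeR adjusted p = 0.260; DESeq2 adjusted p = 0.00342). DESeq2 called it without WT replicate 1 (adjusted p = 0.00878) and not without WT replicate 2 (0.0606), KO replicate 1 (0.662) or KO replicate 2 (0.350), while the log2 fold change stayed between 2.33 and 3.83. Its GENCODE transcripts shared 0% of their 31-base words with transcripts of any other gene.

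For the other nucleoside carriers no test was passed. SLC29A2, the equilibrative transporter ENT2, stood at 20.3 and 33.6 CPM in WT and 45.8 and 32.6 CPM in KO. The groups overlapped, since KO replicate 2 was below WT replicate 2 (log2 fold change 0.54, SE 0.31, 95% interval -0.25 to 1.34; edgeR adjusted p = 0.538). SLC29A4, which carries monoamines and adenosine, stood at 19.1 and 21.8 CPM in WT and 17.7 and 13.2 CPM in KO. Its KO libraries were both lower, but its interval of -0.98 to 0.17 held 0 (log2 fold change -0.41, edgeR adjusted p = 0.526). SLC29A4 shares 18.5% of its 31-base words with other annotated genes, so its estimate is uncertain too. The lysosomal SLC29A3 had counts of 0, 2, 0 and 0 in WT replicates 1 and 2 and KO replicates 1 and 2. Of the sodium-driven SLC28 family, SLC28A1 and SLC28A3 had 0 counts in every library and SLC28A2 had 5 counts in WT replicate 2 and 0 elsewhere. Of the nucleoside carriers 3 of 4 SLC29 members and 0 of 3 SLC28 members were thus at a level that could be tested. Whether SLC29A1 and its relatives differed from one another in response was not tested.

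SLC6A6, which takes up taurine with sodium and chloride (ENSG00000131389, chromosome 3), was the other DESeq2 call. It stood at 24.3 and 23.6 CPM in WT and at 42.8 and 47.8 CPM in KO. The WT libraries were nearly equal and both KO libraries were higher. The group means were 24.0 ± 0.541 and 45.3 ± 3.51 CPM (SD, n = 2 each), a 1.89-fold difference. The log2 fold change was 0.92 with an SE of 0.15 (95% interval 0.53 to 1.30; edgeR adjusted p = 0.253; DESeq2 adjusted p = 0.0143). With any 1 library left out the log2 fold change by DESeq2 stayed between 0.85 and 1.01, but DESeq2 no longer called it (adjusted p between 0.0958 without WT replicate 2 and 1.00 without KO replicate 2). SLC6A6 shared 3.41% of its 31-base words with other genes, among them the overlapping antisense gene GRIP2, which had 4 to 19 counts, and the pseudogene SLC6A6P1, which had 0.

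The rest of the SLC6 family, known mainly for neurotransmitter reuptake in neurons, was sparse. SLC6A8, the creatine transporter, stood at 138.8 and 111.5 CPM in WT and 118.1 and 104.0 CPM in KO, and the groups overlapped (log2 fold change -0.17, 95% interval -0.58 to 0.23; edgeR adjusted p = 0.674). It shares 19.8% of its 31-base words with other genes, among them SLC6A10P, which had 10 to 93 counts, so its estimate is uncertain. SLC6A9, the glycine transporter GlyT1, had 1.00 and 1.97 CPM in WT and 3.34 and 2.11 CPM in KO, with the KO libraries above (log2 fold change 0.87, 95% interval -0.49 to 2.23; edgeR adjusted p = 0.555). Of the 18 SLC6 members 5 were tested and 8 had 0 counts in every library, among them the noradrenaline transporter SLC6A2 and the dopamine transporter SLC6A3. The serotonin transporter SLC6A4 had 0 counts in both WT libraries and 3 in each KO library, too few for a test.

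**Figure D2:**
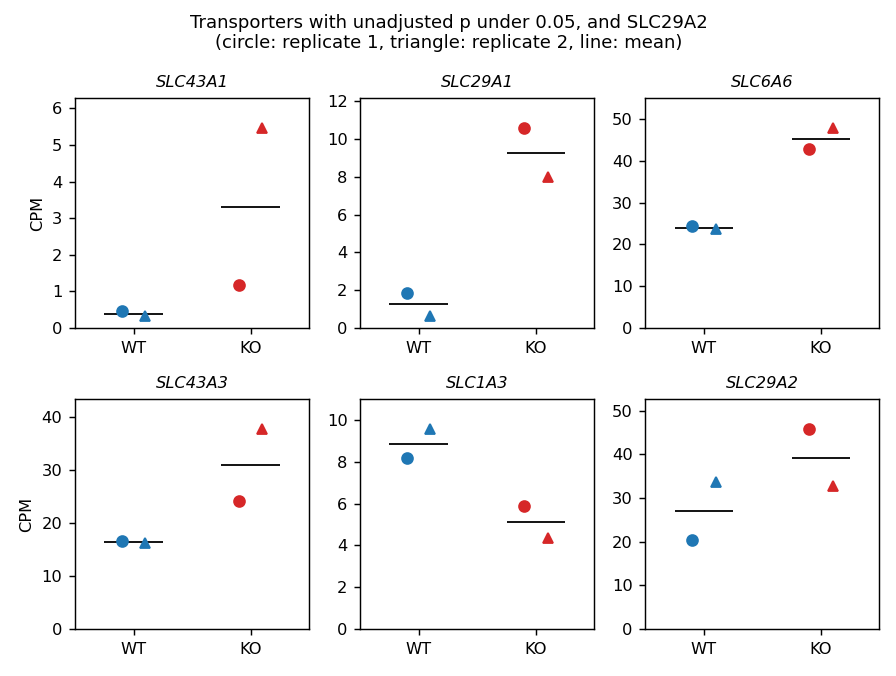
Level in CPM of the 5 transporters with an unadjusted edgeR p under 0.05 and of SLC29A2, in WT (blue) and KO (red), with circles for replicate 1, triangles for replicate 2 and lines for group means; each axis starts at 0. The groups do not touch for SLC43A1, SLC29A1, SLC6A6, SLC43A3 and SLC1A3, which were chosen by p, and they overlap for SLC29A2.

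SLC43A1 and SLC43A2 carry large neutral amino acids such as leucine by facilitated diffusion, and SLC43A3 carries purine bases. SLC43A1 (LAT3, chromosome 11) had the largest log2 fold change of the 29, on few counts. It stood at 0.462 and 0.328 CPM in WT and at 1.17 and 5.46 CPM in KO, with counts of 6, 4, 13 and 93. Both KO libraries were higher, but KO replicate 2 was several times above KO replicate 1. The log2 fold change was 3.06 with an SE of 0.90 (95% interval 0.76 to 5.35; edgeR adjusted p = 0.380; DESeq2 adjusted p = 0.197), and it was 1.55 without KO replicate 2. SLC43A3 (chromosome 11) stood at 16.6 and 16.3 CPM in WT and at 24.1 and 37.8 CPM in KO. Again both KO libraries were higher and KO replicate 2 the highest (log2 fold change 0.91, SE 0.26, 95% interval 0.25 to 1.57; edgeR adjusted p = 0.366; DESeq2 adjusted p = 0.196). Without KO replicate 2 its log2 fold change was 0.55. SLC43A3 shares 27.5% of its 31-base words with other annotated genes, chiefly the same-strand AP000781.2, so its estimate is uncertain. SLC43A2 (LAT4) stood at 24.4 and 25.8 CPM in WT and 28.6 and 23.5 CPM in KO, and the groups overlapped (log2 fold change 0.052, 95% interval -0.40 to 0.50; edgeR adjusted p = 0.918).

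The heavy chain SLC3A2 (4F2hc, also CD98) carries the light chains SLC7A5, SLC7A6, SLC7A7, SLC7A8 and SLC7A11 to the plasma membrane. SLC3A2 stood at 338.1 and 294.5 CPM in WT and 362.2 and 339.3 CPM in KO. Both KO libraries were higher, the lower of them by little (log2 fold change 0.15, SE 0.13, 95% interval -0.18 to 0.48; edgeR adjusted p = 0.656). SLC7A5 (LAT1), the carrier of leucine and other large neutral amino acids, stood at 443.5 and 432.1 CPM in WT and 482.4 and 463.1 CPM in KO. Its KO libraries were again both higher by a small margin (log2 fold change 0.11, SE 0.11, 95% interval -0.17 to 0.40; edgeR adjusted p = 0.697). It shares 11.2% of its 31-base words with other annotated genes. The other heavy chain, SLC3A1 of the kidney and gut, had counts of 6, 2, 1 and 1 in WT replicates 1 and 2 and KO replicates 1 and 2.

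SLC7A11 (xCT), which exchanges glutamate for the cystine that cells use to make glutathione, stood at 141.0 and 148.3 CPM in WT and 119.6 and 137.6 CPM in KO. Both KO libraries were lower, KO replicate 2 by little (log2 fold change -0.17, 95% interval -0.49 to 0.15; edgeR adjusted p = 0.613). It shares 12.1% of these words with other annotated genes. SLC7A6 (y+LAT2), an exchanger of cationic for neutral amino acids, stood at 111.3 and 105.8 CPM in WT and 116.7 and 152.4 CPM in KO. Both KO libraries were higher, with most of the difference in KO replicate 2 (log2 fold change 0.31, 95% interval -0.11 to 0.73; edgeR adjusted p = 0.521). SLC7A6 shares 53.5% of its 31-base words with other genes, chiefly SLC7A6OS on the opposite strand, so its estimate is uncertain. The cationic amino acid carrier SLC7A1 (CAT1) had 11, 15, 20 and 17 counts, or 0.848 and 1.23 CPM in WT and 1.81 and 0.998 CPM in KO, and the groups overlapped (log2 fold change 0.42, 95% interval -0.99 to 1.82; edgeR adjusted p = 0.772). Of 13 SLC7 members 6 were tested, and 2 of these, SLC7A2 and SLC7A8, had 0 counts in WT replicate 1 alone.

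No glutamine carrier passed the test with all 4 libraries. SLC1A5 (ASCT2), an exchanger of glutamine and small neutral amino acids, stood at 355.5 and 361.1 CPM in WT and 413.4 and 379.4 CPM in KO. The KO libraries were both higher (log2 fold change 0.15, SE 0.11, 95% interval -0.15 to 0.44; edgeR adjusted p = 0.631). SLC1A5 shares 22.8% of its 31-base words with other annotated genes, so its estimate is uncertain. SLC38A2 (SNAT2), whose transcript is known to be induced by amino acid shortage, stood at 884.6 and 655.7 CPM in WT and 635.2 and 654.5 CPM in KO. WT replicate 1 was the high library, and WT replicate 2 was nearly level with the KO libraries (log2 fold change -0.26, SE 0.18, 95% interval -0.71 to 0.20; edgeR adjusted p = 0.594). The log2 fold change was -0.024 once WT replicate 1 was left out. Without WT replicate 2 it was -0.44, with the high library as the only WT library left. SLC38A1 (SNAT1), which also takes up glutamine with sodium, stood at 191.1 and 166.8 CPM in WT and 188.7 and 197.2 CPM in KO, and the groups overlapped (log2 fold change 0.11, 95% interval -0.21 to 0.43; edgeR adjusted p = 0.735).

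The members with the most counts were the 8 above 100 CPM in WT, a level not divided by length: SLC38A2, SLC7A5, SLC1A5, SLC3A2, SLC38A1, SLC7A11, SLC6A8 and SLC7A6. They held 90.0% of the members' WT counts. Their log2 fold changes ran from -0.26 to 0.31, 0 of the 8 had an unadjusted edgeR p under 0.05, and none of their 95% intervals reached beyond 0.73 in size. More counts did not always bring a smaller SE, which was 0.18 for SLC38A2 and 0.15 for SLC6A6, a member with far fewer counts. An interval that holds 0 does not show equal levels.

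**Figure D3:**
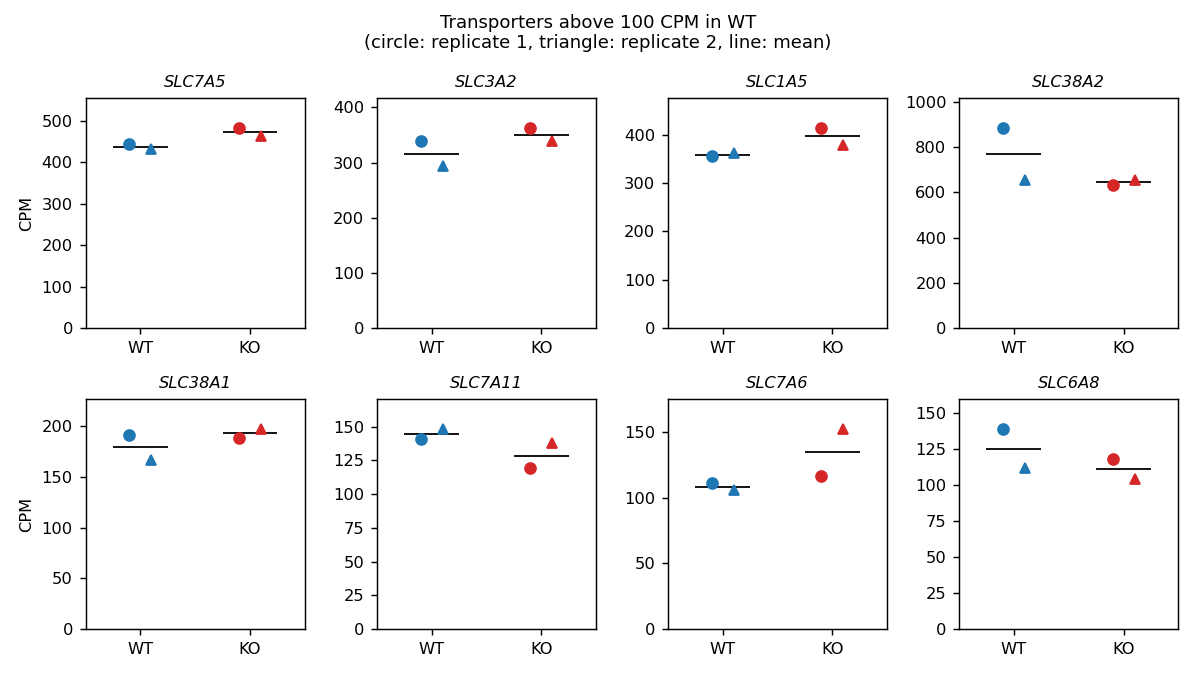
Level in CPM of the 8 transporters above 100 CPM in WT, drawn as circles for replicate 1 and triangles for replicate 2 with group means as lines, WT in blue and KO in red, each axis from 0. Group means lie near each other, and for some members, among them SLC38A2, SLC6A8 and SLC7A6, replicates of a group lie farther apart than the means. WT replicate 1 of SLC38A2 (884.6 CPM) is the library that stands highest above its group.

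Of the 11 SLC38 members 7 were tested, and their log2 fold changes lay between -0.29 (SLC38A6) and 0.22 (SLC38A7), with 0 at an unadjusted p under 0.05. SLC38A9, the lysosomal carrier that reports arginine to the kinase complex mTORC1, stood at 8.86 and 9.66 CPM in WT and 9.76 and 10.6 CPM in KO. KO was higher by less than 1 CPM in the group means (log2 fold change 0.14, 95% interval -0.44 to 0.72; edgeR adjusted p = 0.819). SLC38A5 (SNAT5) had a log2 fold change of 0.080 and SLC38A10 of -0.067, and both groups overlapped.

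SLC36A1 (PAT1), a proton-coupled carrier of small amino acids on lysosomes and the brush border, had low counts of 3 and 21 in WT and 34 and 55 in KO. The levels were 0.231 and 1.72 CPM in WT and 3.07 and 3.23 CPM in KO. The KO libraries agreed closely and lay above both WT libraries, which were far apart. The log2 fold change of 1.69 had an SE of 0.86 (95% interval -0.51 to 3.89; edgeR adjusted p = 0.514). It was 0.87 without WT replicate 1 and 3.73 without WT replicate 2 (edgeR adjusted p = 0.0555). SLC36A4 stood at 24.0 and 17.8 CPM in WT and 19.2 and 24.6 CPM in KO, and the groups overlapped (log2 fold change 0.073; edgeR adjusted p = 0.915). SLC36A2 and SLC36A3 had at most 7 counts in any library.

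SLC1A3, the glutamate and aspartate transporter EAAT1 (chromosome 5), was the 1 member lower in KO at an unadjusted p under 0.05. It stood at 8.17 and 9.58 CPM in WT and at 5.87 and 4.34 CPM in KO. Both KO libraries were lower, a 1.74-fold difference of the groups (log2 fold change -0.80, SE 0.30, 95% interval -1.57 to -0.034). The edgeR adjusted p was 0.441 and the DESeq2 adjusted p 0.697. Its unadjusted p was not under 0.05 by DESeq2, with no scaling factor, with the replicate block, or without WT replicate 1, WT replicate 2 or KO replicate 2. The other glutamate transporters had too few counts to test. SLC1A1 and SLC1A7 had 0 counts in every library, and SLC1A2 and SLC1A6 had at most 1 count in any library. The neutral amino acid carrier SLC1A4 (ASCT1) had 10 and 15 counts in WT and 3 and 6 in KO and did not pass the filter on low counts.

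The 4 members given next had libraries of the same group that differed more than the group means. They are not the only such members, and SLC43A1 above is another. SLC6A20, a proline and imino acid carrier, had counts of 83 and 4 in WT and 96 and 2 in KO, or 6.40 and 0.328 CPM and 8.67 and 0.117 CPM. The 2 libraries numbered 1 were high and the 2 numbered 2 were near the floor, so its log2 fold change of 0.35 had an SE of 1.80. SLC6A16, an orphan member of the family, had 5 and 19 counts in WT and 18 and 3 in KO. SLC7A2 (CAT2), a cationic amino acid carrier, had 0 counts in WT replicate 1 against 155, 108 and 81 in WT replicate 2 and KO replicates 1 and 2. SLC7A8 (LAT2), a light chain of SLC3A2, had 0 counts in the same library against 13, 11 and 10. For SLC7A2 the log2 fold change was 0.19 with all libraries, -0.82 without WT replicate 1 and 9.63 without WT replicate 2. The last value is set by the 0 counts of the only WT library left. SLC7A2 shared 0.088% of its 31-base words with other genes and SLC7A8 0%.

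**Figure D4:**
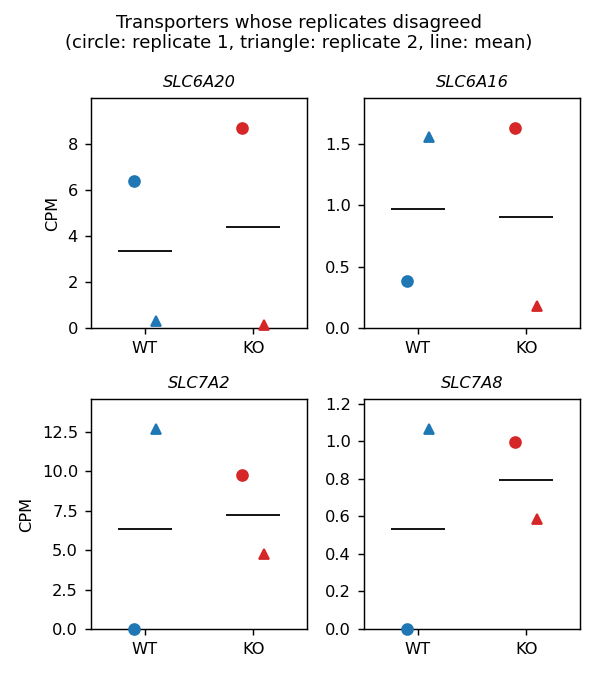
Level in CPM of 4 transporters with few counts in WT (blue) and KO (red), with circles for replicate 1, triangles for replicate 2 and lines for group means. SLC6A20 is high in both libraries numbered 1, and SLC7A2 and SLC7A8 are at 0 in WT replicate 1.

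The genes that work with these carriers were read from 6 lists, with no test of a list. In each of the 6 edgeR called 0 members and DESeq2 called 0. Beside the counts that follow stand the shares over all tested genes, of which 48.5% lay above 0, and 4.97% were higher and 6.21% lower at an unadjusted p under 0.05. Of 19 tested targets of ATF4, the transcription factor of the amino acid response, 5 lay above 0 and 14 below, with a median log2 fold change of -0.11 and 1 at an unadjusted p under 0.05. That was PHGDH, the first enzyme of serine synthesis, with 29.05 and 27.9 CPM in WT and 17.3 and 20.6 CPM in KO (-0.59, SE 0.17; edgeR adjusted p = 0.382). SLC38A2, SLC7A11, SLC3A2 and SLC7A5 are known targets of the same factor and are given above.

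Of 25 tested genes of amino acid sensing upstream of mTORC1, 12 lay above 0 and 13 below (median -0.015). The 1 with an unadjusted p under 0.05 was RRAGD, a Rag GTPase, with 50.2 and 51.6 CPM in WT and 27.7 and 38.9 CPM in KO (-0.61, SE 0.20; edgeR adjusted p = 0.410). Of 17 tested nucleoside salvage genes, 8 lay above 0 and 9 below (median -0.11), with 2 higher and 1 lower at an unadjusted p under 0.05. The smallest p was that of NT5E (CD73), which makes adenosine outside the cell, with 16.3 and 21.7 CPM in WT and 32.9 and 32.8 CPM in KO (0.79, SE 0.20; edgeR adjusted p = 0.337).

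Of 8 tested genes of glutathione synthesis and the thiol response, 2 lay above 0 and 6 below (median -0.28), with 1 higher and 2 lower at an unadjusted p under 0.05. NQO1, a quinone reductase, stood at 750.7 and 576.3 CPM in WT and 442.4 and 437.9 CPM in KO (-0.59, SE 0.16; edgeR adjusted p = 0.361; DESeq2 adjusted p = 0.0849). Of 10 tested genes of glutamine and glutamate use 3 lay above 0 and 7 below (median -0.10), with 0 at an unadjusted p under 0.05. OGDH, a subunit of the 2-oxoglutarate dehydrogenase complex, had the smallest p, with 64.7 and 62.3 CPM in WT and 90.4 and 74.0 CPM in KO (0.37, SE 0.15; edgeR adjusted p = 0.452). Of 15 tested amino acid carriers outside the 9 families 9 lay above 0 and 6 below (median 0.085), with 2 higher and 1 lower at an unadjusted p under 0.05. The last was SLC25A13, the mitochondrial aspartate and glutamate carrier, with 4.78 and 5.81 CPM in WT and 1.63 and 1.70 CPM in KO (-1.66, SE 0.35; edgeR adjusted p = 0.274).

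**Figure D5:**
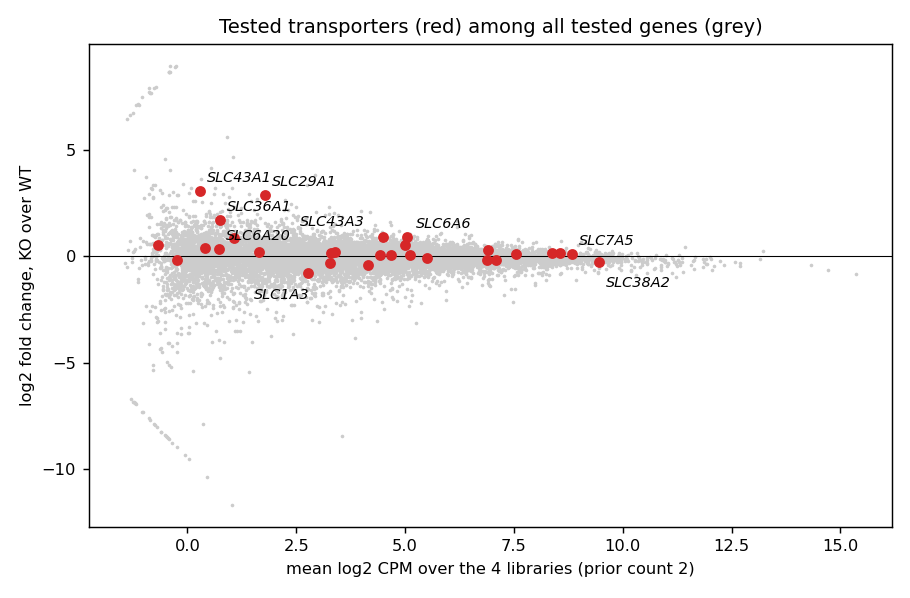
Log2 fold change of KO over WT against mean log2 CPM (prior count 2) for the 29 tested transporters (red) among all 12269 tested genes (grey). The members at the right, such as SLC7A5 and SLC38A2, lie near 0, and SLC43A1 and SLC29A1 lie among the higher points at low mean level.

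RefSeq upstream windows were matched for 48 of the 65 members, 24 of them tested, and none was matched for SLC6A6, SLC43A3, SLC29A2, SLC7A11 or SLC7A2. Among these 24, the E-box CACGTG, searched on both strands, was in the windows of 5 (20.8%), against 6.49% of all 27305 RefSeq windows of the same length. The 5 were SLC29A1, SLC43A1, SLC7A5, SLC38A5 and SLC6A16, whose log2 fold changes were 2.87, 3.06, 0.11, 0.080 and -0.17, so members with the letters ranged from the highest fold changes to values near 0. The GC box GGGCGG was in 19 of the 24 (79.2%), against 42.3% of all windows, and CCAAT in 4 (16.7%) against 33.0%. The core ACGTG of the hypoxia response element, which lies within CACGTG, was in 6 (25%) against 18.7%. The amino acid response core TGATGNAA was in 1, SLC1A3 (4.17%), against 3.19%, and the cyclic AMP element TGACGTCA in 0 against 1.77%. The 24 members had passed the filter on low counts, while the 27305 windows were not limited to tested genes. These shares therefore do not set the carriers apart from other expressed genes. A match is a description of letters and not of a bound site.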

How the data were processed

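The authors deposited estimated counts per gene (whole numbers) and a second table in RPKM. The submitters' processing notes name Salmon 1.10.1 and hg19. Annotation and strand setting were not given in the sources used here. Libraries came from a stranded kit, per the labels' protocols. The estimated counts were used as deposited. The deposited RPKM served to read the gene length behind them, which for 18 members with at least 100 counts in every library was a median of 3.75 times the longest GENCODE 29 transcript, so levels per length were not compared between genes. Groupings of members by CPM refer to their counts only.

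Genotype was tested in edgeR 4.0.16 (quasi-likelihood, TMM, filterByExpr; R 4.3.3), with no other term, over all 12269 genes passing, and p-values were Benjamini-Hochberg adjusted and read at 0.05. The SE is the log2 fold change divided by the square root of F, and 95% intervals use the fit's degrees of freedom. DESeq2 1.42.0 (Wald, independent filtering at 0.05) was an alternative. Both were run on simulated counts with large changes planted in well-counted genes and a single fixed spread. That does not check them for genes with few counts or discordant replicates. Members, lists and tests were chosen with earlier results of these data known. Values in every library were given for members with an unadjusted edgeR p or a DESeq2 adjusted p under 0.05 and for a set of main carriers fixed by role. From the pathway lists the gene of smallest edgeR p was named where DESeq2 called none. The 4 members shown for disagreeing replicates were chosen after their values were seen, as were the other members named. Shared 31-base words came from GENCODE 29 transcripts on both strands and upstream windows from RefSeq (GRCh38.p14), a build other than the authors'. Bases outside the GENCODE transcripts were not searched for shared words.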

Additional observations from a re-analysis of the deposited data

How the results depend on the processing

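The count of 0 members called by edgeR was also found with RLE size factors, with no scaling factor, with no filter on low counts and with the replicate block, while DESeq2 called 2. With 1 library left out the count was not the same in every fit. Without WT replicate 2 edgeR called SLC29A1 and SLC7A2, so the count rose. The number of all tested genes called rose too, so that rise was not particular to these members. The median log2 fold change of tested members was 0.15 and became 0.29 with no scaling factor, which also moved the median of all tested genes by 0.16. It lay between 0.085 and 0.20 with 1 library left out. The 5 members at an unadjusted p under 0.05, of which SLC1A3 was lost by DESeq2, with no scaling factor and with the replicate block, became 6 with no scaling factor, 4 by DESeq2, and 2 to 9 with 1 library left out (2 without KO replicate 2, 9 without WT replicate 2). With 1 library left out, an alternative chosen after seeing the data, no DESeq2 fit called the same 2 members as the fit to all 4 libraries. Without WT replicate 2 DESeq2 called SLC38A2 and SLC7A2 instead, with WT replicate 1 as the only WT library left. Replicate numbers come from the sample titles, which do not say that they pair libraries. Across 12269 genes the deviations of same-numbered libraries had r = 0.058. With the replicate block edgeR called 0 members, 4 had an unadjusted p under 0.05 and SLC6A20 turned to -0.036.

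SLC38A10 turned to 0.083 with no scaling factor. With 1 library left out the direction turned for members near 0 or with discordant replicates: SLC7A2 (-0.82 to 9.63), SLC7A8 (-0.44 to 6.44), SLC6A20 (-4.74 to 3.68), SLC6A16 (-2.40 to 1.17), SLC36A4 (-0.12 to 0.31), SLC38A10 (-0.21 to 0.068), SLC38A5 (-0.054 to 0.21), SLC43A2 (-0.095 to 0.19) and SLC7A1 (-0.052 to 0.80). With 1 library in an arm, that library is assumed to vary like those of the other group. SLC1A4 and the SLC28 genes had at most 15 counts in any library and did not pass edgeR's filter. DESeq2 gave SLC1A4 a log2 fold change of -1.67 (DESeq2 adjusted p = 0.883). For the SLC28 genes no difference was detectable at this depth.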
